A study of Mus musculus with 4 samples.

Results

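The 5 genes described here, Srsf1, Srsf2, Srsf3, Srsf9 and Tra2b, encode serine and arginine-rich (SR) proteins or a close relative, and 2 of them encode the very proteins whose binding was mapped. What was counted in each gene is its peaks, the short stretches of RNA on which a protein was called as bound. Peaks were taken by gene: those of Srsf1, Srsf3, Srsf9 and Tra2b carry the gene's RefSeq transcript in their name. Srsf2 has no peak with a RefSeq name, so every minus-strand peak in a fixed window of 3501 nt on chromosome 11 (mouse build mm9) was taken for it, with peaks from 116711609 to 116714217. The files do not pair that stretch with a gene name, and its assignment to Srsf2 rests on the position alone. This gave 34 of the 50983 SRSF1 peaks and 40 of the 56336 SRSF2 peaks, 74 of 107319 in all.

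The peaks come from CLIP-seq, in which ultraviolet light crosslinks proteins to RNA, 1 protein is precipitated and the RNA fragments held by it are sequenced. Both libraries are from mouse embryonic fibroblasts, connective tissue cells grown from embryos, of the "tet-repressible" SRSF1 and SRSF2 lines kept without tetracycline, with an antibody against an HA tag. SRSF1 (also SF2/ASF) was mapped in the SRSF1 line and SRSF2 (also SC35) in the SRSF2 line, with 1 library each, so protein and line cannot be told apart and there is no replicate error or test between proteins. The other 2 of the 4 samples, SRSF1 libraries made after siRNA treatment (control, or directed at SRSF2), were not analysed here. What remains of the lines' own Srsf1 and Srsf2 genes was not given in those labels. RNA of a tagged construct and RNA of the gene cannot be told apart in the lists, which touches the SRSF1 peaks on Srsf1 and the SRSF2 peaks on Srsf2. Fibroblast markers were not checked, since a peak list gives no RNA level.

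SR proteins bind short motifs in pre-mRNA through RNA recognition motifs and use a region rich in arginine and serine dipeptides to help the spliceosome choose exons. Many SR protein genes carry a so-called poison exon or an intron in the 3′ untranslated region whose splicing sends the mRNA to nonsense-mediated decay, and several SR proteins act on their own transcripts in this way. SRSF1 and SRSF2 are founding members of the family, SRSF3 is its smallest classical member and also serves in mRNA export, SRSF9 is a close relative of SRSF1, and Tra2b, transformer 2 beta, is an SR-like activator of exons. Exons, introns and untranslated regions were not assigned to any peak, because the annotation at hand is of another build, and no sequence is shown for the same reason.

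All 5 genes were bound by both proteins. Srsf1 had 11 SRSF1 and 12 SRSF2 peaks, Srsf2 had 4 and 8, Srsf3 had 9 and 10, Srsf9 had 4 and 3, and Tra2b had 6 and 7. SRSF1 thus made up 45.9% of the 74 peaks (exact 95% binomial interval 34.3 to 57.9), an interval that includes its 47.5% of all listed peaks. The most unequal gene was Srsf2 at 33.3% SRSF1, and its interval of 9.92 to 65.1 also includes 47.5%. Intervals cover counting error only, and neighbouring peaks are not independent.

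**Figure D1:**
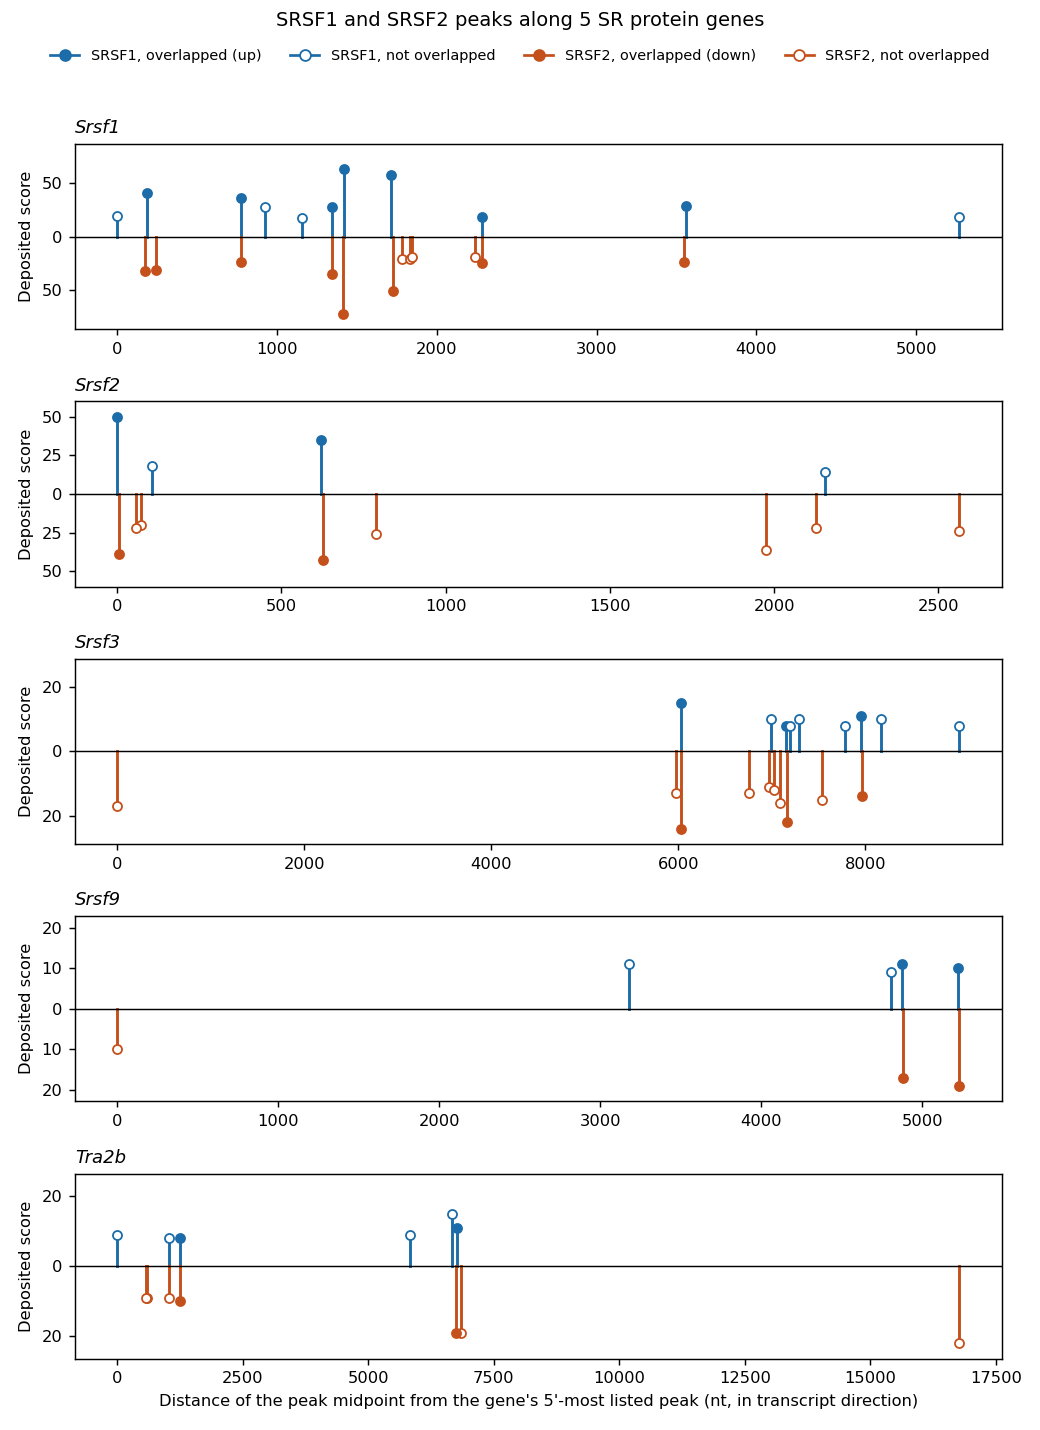
Each line is 1 peak, placed by the distance of its midpoint from the 5′-most listed peak of the gene (nt, in transcript direction), with the authors' score as its length: SRSF1 upward in blue, SRSF2 downward in orange. Filled circles are peaks overlapped by the other protein. In Srsf1 the tallest lines of both proteins stand together, while in Tra2b the tallest SRSF2 line stands alone 16777 nt from the start.

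Part of the peaks of each protein overlapped peaks of the other. Of the SRSF1 peaks in the 5 genes, 16 of 34 (47.1%, interval 29.8 to 64.9) shared at least 1 nt on the same strand with an SRSF2 peak, against 38.7% of all SRSF1 peaks. Of the SRSF2 peaks, 17 of 40 (42.5%, 27.0 to 59.1) were overlapped by SRSF1, against 35.2% of all SRSF2 peaks. Both intervals include the background, so the 5 genes as a group are not set apart by these shares. The overlaps made 17 pairs with a median of 21 nt shared, and in 16 of them at least 50% of the shorter peak was shared. Midpoints lay a median of 6 nt apart and within 10 nt in 12 pairs. Pairs were chosen by overlap, so their midpoints had to be near. The same values over all overlapping pairs of the lists are not given here. The shorter peak lay wholly inside the longer one in 8 pairs. The SRSF2 midpoint was downstream of the SRSF1 midpoint in 9 pairs, upstream in 6 and at the same place in 2.

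Chained by overlap, the 74 peaks formed 57 sites, of which 16 held both proteins, 18 SRSF1 alone and 23 SRSF2 alone. The share of such sites over the whole lists is not given here. Over the 5 genes together, sites of both proteins held the stronger and wider peaks by median. The deposited score is a whole number whose meaning no label or header gives, with a median of 8 in each list. Overlapped SRSF1 peaks of the 5 genes had a median score of 23 and a median width of 25 nt, and those without a partner 10 and 13.5 nt. For SRSF2 the medians were 24 and 32 nt with a partner against 19 and 14 nt without. These medians mix genes of different score level, but within Srsf1 alone the median scores were 36 with a partner and 18.5 without for SRSF1, and 31.5 and 20 for SRSF2. In each of the 5 genes the median score was higher with a partner for both proteins. For SRSF1 the difference was small on Srsf9 (10.5 against 10) and Tra2b (9.5 against 9). The highest peak of each protein on Tra2b had no partner. Among other listed SRSF1 peaks, 51.4% of those scored at least 8 and 77.9% of those scored at least 17 were overlapped. For SRSF2 the shares were 48.3% at 9 or more and 75.3% at 19 or more. A higher score with a partner is thus not particular to these genes. In Srsf9 and Tra2b the SRSF1 peaks without a partner were the slightly wider ones, with medians of 15.5 against 14 nt and 23 against 20.5 nt. A wide peak meets another more easily. Of all listed peaks at least 60 nt wide, 93.3% of SRSF1 and 88% of SRSF2 peaks were overlapped. All 4 such SRSF1 peaks and all 6 such SRSF2 peaks in these genes were.

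Srsf1, the gene of SRSF1 itself (NM_173374, chromosome 11, plus strand), carried the strongest peaks of the group and the most sites with both proteins. Its peaks ran from 87861241 to 87866520, a span of 5280 nt. All 11 SRSF1 and all 12 SRSF2 peaks scored in the upper 10% of their list, where the limits are 15 and 16. Their median score was 28 for SRSF1, above that of 99.6% of the other 683 RefSeq-named genes with at least 3 peaks of each protein, and 24.5 for SRSF2, above that of 98.7%. The lowest listed scores, 17 and 19, were also above those of 98.7% and 98.2% of these genes. The lowest listed score differed by gene, for example 4 and 4 on Antxr2, 16 and 23 on Actb and 19 and 23 on Lgals1. Whether weaker peaks of a gene were left out of the lists was not tested. Whether scores can be compared between genes is not stated in the labels.

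The highest peaks of both proteins on Srsf1 fell on 1 site. SRSF1 scored 63 at 87862619 to 87862710 and SRSF2 scored 72 at 87862621 to 87862696, so the 76 nt of the SRSF2 peak lay within the 92 nt of the SRSF1 peak. Just upstream, both lists held a peak with identical ends, 87862577 to 87862604, scored 28 by SRSF1 and 35 by SRSF2. It was the only pair of the 17 with identical ends. The second-highest peaks of each protein also coincided, with SRSF1 at 87862912 to 87863002 (score 58) and SRSF2 at 87862916 to 87863019 (score 51), sharing 87 nt. These 3 sites lay within 443 nt, from 87862577 to 87863019.

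A wide SRSF1 peak near the 5′ end of the bound region, 87861384 to 87861475 with a score of 41, faced 2 SRSF2 peaks. One began at the same base, 87861384 to 87861448 with a score of 32, and the next, 87861455 to 87861515 with a score of 31, extended 40 nt beyond the SRSF1 peak. The SRSF2 peak at 87862010 to 87862025 (score 24) lay inside the SRSF1 peak at 87862006 to 87862029 (score 36) with the same midpoint. Further down, the 8 nt SRSF1 peak at 87863522 to 87863529 (score 18) lay inside an SRSF2 peak of 31 nt (score 25), and 22 nt were shared between the SRSF1 peak at 87864790 to 87864816 (score 29) and the SRSF2 peak at 87864776 to 87864811 (score 24).

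**Figure D2:**
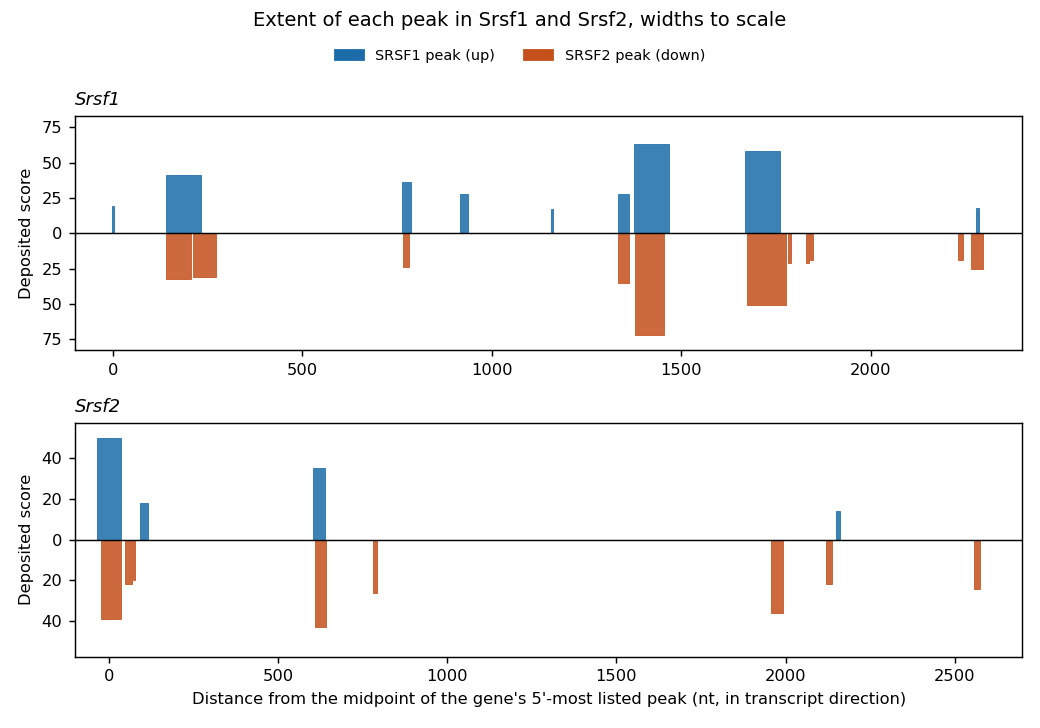
Peaks of Srsf1 and Srsf2 drawn as boxes with their width to scale (nt, in transcript direction from the midpoint of the 5′-most peak) and the authors' score as height, SRSF1 up and SRSF2 down. The Srsf1 panel leaves out the 3 peaks farthest downstream. The 3 tallest boxes of SRSF1 on Srsf1 each face SRSF2 boxes, and the SRSF2 score of 72 marks the site of the highest SRSF1 score, 63.

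The listed peaks of the proteins differed at the edges of Srsf1, where scores were near 19, the lowest listed SRSF2 score on the gene. SRSF1 alone had the outermost peaks, at 87861241 to 87861246 (score 19) and at 87866508 to 87866520 (score 18), the latter 1696 nt beyond any SRSF2 peak. Between them it stood alone at 87862161 to 87862181 (score 28) and at 87862399 to 87862405 (score 17), 153.5 and 188.5 nt from the nearest SRSF2 midpoint. SRSF2 peaks without a partner were closer in. Narrow peaks at 87863025, 87863072 and 87863084, 6 to 9 nt wide and scored 19 to 21, trailed the shared site that ends at 87863019, and another (87863474 to 87863487, score 19) ended 34 nt before an SRSF1 peak. In this gene 7 of 11 SRSF1 peaks (63.6%, 30.8 to 89.1) and 8 of 12 SRSF2 peaks (66.7%, 34.9 to 90.1) were overlapped. High-scoring peaks are overlapped more often in general. Among all other listed peaks scored at least as high as the lowest on Srsf1, 77.9% of SRSF1 and 75.3% of SRSF2 peaks were overlapped. The shares in Srsf1 were not above these values. The sets have no upper limit and reach scores of 354 and 416, so they are not matched to the gene in score. The sets used below for the other genes are of the same kind.

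On Srsf2, the gene of the other mapped protein (chromosome 11, minus strand, a span of 2609 nt), both proteins were strong at the same 2 sites but SRSF2 had more sites of its own. All peaks there carried the name of 1 unnamed cluster, the same in both lists. The 5′-most site held the highest SRSF1 peak of the gene, 116714147 to 116714217 with a score of 50, and the second-highest SRSF2 peak, 116714146 to 116714206 with a score of 39, which shared 60 nt. At the next shared site downstream the order was turned, with the highest SRSF2 peak, 116713540 to 116713571 (score 43), on the second-highest SRSF1 peak, 116713545 to 116713577 (score 35). The highest peaks of the proteins therefore lay 626.5 nt apart although both sites carried both proteins. The SRSF1 median score of 26.5 was above that of 99.4%, and the SRSF2 median of 25 above that of 98.7%, of 684 RefSeq-named genes.

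Both remaining SRSF1 peaks on Srsf2 lay beside an SRSF2 peak without touching it. SRSF1 at 116714066 to 116714089 (score 18) was 16 nt from SRSF2 at 116714106 to 116714111 (score 20), and a further SRSF2 peak at 116714113 to 116714134 (score 22) lay between these and the 5′ shared site. SRSF1 at 116712023 to 116712032 (score 14) was 13 nt from SRSF2 at 116712046 to 116712061 (score 22). All 4 SRSF1 peaks thus had an SRSF2 midpoint within 50 nt, where 2 of 4 overlapped (50%, 6.76 to 93.2). Of the 8 SRSF2 peaks 2 overlapped (25%, 3.19 to 65.1), and 62.5% had an SRSF1 midpoint within 50 nt. The share of all listed peaks with such a near midpoint is not given here. The SRSF2 peaks with no SRSF1 midpoint within 50 nt were at 116712191 to 116712224, its third-highest with a score of 36, at 116713389 to 116713402 (score 26) and at 116711609 to 116711626 (score 24), which was the 3′-most peak of either protein. Of the other listed peaks scored at least as high as the lowest on Srsf2, 71.3% of SRSF1 and 77.0% of SRSF2 peaks were overlapped. The interval of the SRSF1 share on Srsf2 includes the first value and that of the SRSF2 share ends below the second, the only one of 10 such comparisons over the 5 genes whose interval leaves out the value. No test was made.

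Srsf3 (NM_013663, chromosome 17, plus strand, peaks from 29169627 to 29178661) had weaker and narrower SRSF1 peaks than Srsf1 and Srsf2. Its 9 SRSF1 scores ran from 8 to 15 with a median of 10, and its 10 SRSF2 scores from 11 to 24 with a median of 14.5. These medians were still above those of 79.8% (SRSF1) and 93.7% (SRSF2) of the other 683 named genes. The SRSF1 peaks had a median width of 11 nt, below which lay only 3.95% of the other 683 genes, and the SRSF2 peaks 24 nt, above the width of 88.1% of genes. The highest peaks of both proteins again shared a site. SRSF1 at 29175665 to 29175687 (score 15) lay inside SRSF2 at 29175662 to 29175689 (score 24), with midpoints 0.5 nt apart. SRSF1 at 29176793 to 29176801, with a score of 8, lay inside the second-highest SRSF2 peak, 29176791 to 29176825 with a score of 22. The third pair was SRSF1 at 29177593 to 29177611 (score 11) and SRSF2 at 29177597 to 29177621 (score 14).

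In between, peaks of the proteins on Srsf3 were interleaved. A stretch of about 1 kb, from 29176619 to 29177621, held 6 SRSF1 and 6 SRSF2 peaks, 63.2% of all peaks of the gene, and only 2 pairs of them overlapped. SRSF1 at 29176634 lay 5 nt from SRSF2 at 29176619 to 29176628, and SRSF1 at 29176839 lay 13 nt from the SRSF2 peak that ends at 29176825. Overlap reached 3 of 9 SRSF1 peaks (33.3%, 7.49 to 70.1) and 3 of 10 SRSF2 peaks (30.0%, 6.67 to 65.2), against 51.5% and 55.3% of the other listed peaks of at least its lowest scores, which both intervals include. The ends of the bound region differed: SRSF2 alone was at 29169627 to 29169669 (score 17, 43 nt wide), 5995 nt from any SRSF1 peak, and SRSF1 alone was 3′-most, at 29178651 to 29178661 (score 8), 1029 nt from any SRSF2 peak.

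**Figure D3:**
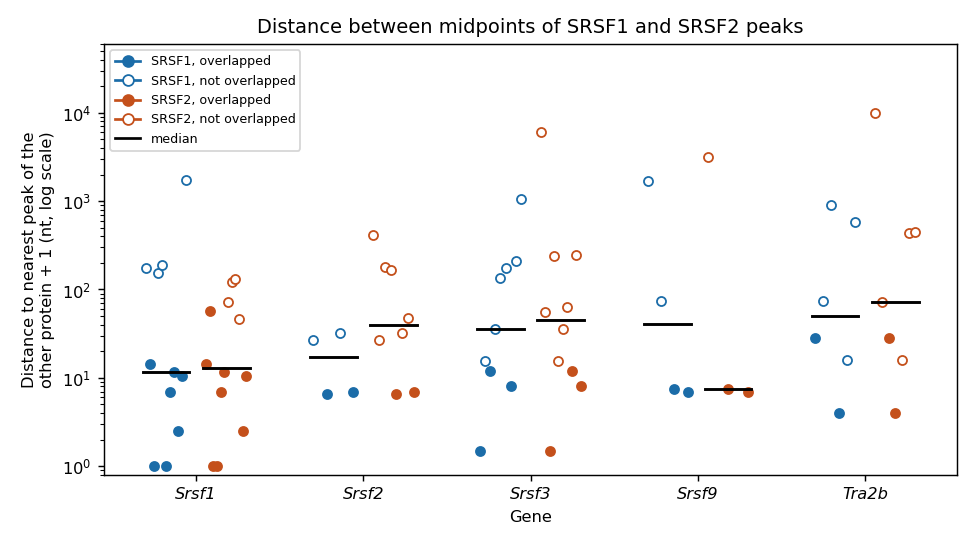
Distance from the midpoint of each peak to the nearest midpoint of the other protein (nt plus 1, log scale), by gene, SRSF1 in blue and SRSF2 in orange, filled where the peaks overlap, with black bars for medians. The 3 highest points are SRSF2 peaks of Tra2b, Srsf3 and Srsf9 at 9999.5, 6028 and 3179 nt.

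Srsf9 (NM_025573, chromosome 5, plus strand, peaks from 115777381 to 115782629) had the fewest peaks, and most of them lay near the 3′ end of the bound region. SRSF1 scores were 9 to 11 and SRSF2 scores 10, 17 and 19. Their medians, 10.5 and 17, were above those of 84.3% (SRSF1) and 95.6% (SRSF2) of the other 683 named genes. SRSF1 at 115782252 to 115782266 (score 11) met SRSF2 at 115782253 to 115782278 (score 17), and SRSF1 at 115782605 to 115782617 (score 10) met SRSF2 at 115782605 to 115782629 (score 19). In both pairs the SRSF2 peak extended 12 nt further downstream. SRSF1 stood alone at 115780558 to 115780571 with a score of 11, which ties for its highest, and at 115782184 to 115782200 (score 9). SRSF2 stood alone at 115777381 to 115777390 (score 10), 3167 nt upstream of any SRSF1 peak. The overlap shares, 2 of 4 (50%) and 2 of 3 (66.7%), have intervals of 6.76 to 93.2 and 9.43 to 99.2, which include the 55.2% and 51.7% of other listed peaks of at least its lowest scores.

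Tra2b (NM_009186, chromosome 16, minus strand) spread its peaks over 16814 nt, from 22249131 to 22265944, in groups. At the 5′ end SRSF1 stood alone at 22265918 to 22265944 (score 9), followed by a pair of narrow SRSF2 peaks at 22265355 to 22265362 and 22265342 to 22265351, each scored 9. SRSF1 at 22264903 to 22264910 (score 8) lay 3 nt from SRSF2 at 22264884 to 22264899 (score 9), and SRSF1 at 22264683 to 22264697 (score 8) overlapped SRSF2 at 22264680 to 22264694 (score 10) by 12 nt. The next group downstream held stronger peaks. SRSF1 scored highest at 22259240 to 22259266 (score 15), 26 nt from the SRSF2 peak at 22259148 to 22259213 (score 19, 66 nt wide), which overlapped the next SRSF1 peak at 22259141 to 22259166 (score 11). SRSF2 at 22259068 to 22259098, also scored 19, followed.

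The highest SRSF2 peak on Tra2b was the most isolated of all 74 peaks. It lay at 22249131 to 22249177 with a score of 22, in the upper 10% of the SRSF2 list, and 9963 nt downstream of the nearest listed SRSF1 peak. The highest peaks of the proteins on Tra2b were thus 10099 nt apart. The median scores on Tra2b, 9 and 10, were above those of 71.2% (SRSF1) and 70.6% (SRSF2) of the other 683 named genes. Overlap reached 2 of 6 SRSF1 peaks (33.3%, 4.33 to 77.7) and 2 of 7 SRSF2 peaks (28.6%, 3.67 to 71.0). Both intervals include the 51.4% and 48.3% of other listed peaks of at least its lowest scores.

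The long gaps must be read with the peaks that are missing from the lists. Peak numbers rose with the coordinate in every one of these genes, and 7 SRSF1 and 9 SRSF2 numbers were not listed. On Tra2b, SRSF1 numbers 1 and 2 are missing below 22259141, the side on which the isolated SRSF2 peak lies. On Srsf3, SRSF1 number 1 is missing upstream of 29175665, the side of the isolated SRSF2 peak at 29169627. On Srsf9, SRSF2 number 2 is missing between 115777390 and 115782253, where SRSF1 stood alone at 115780558. Of the peaks without a partner, 2 of 18 SRSF1 and 5 of 23 SRSF2 peaks lay in such a stretch. None of the 16 unpartnered peaks on Srsf1 and Srsf2 did. Unlisted numbers can be seen only up to the highest listed number, so peaks dropped past it do not show. The SRSF1 peak at 87866508 on Srsf1 lies past the last listed SRSF2 peak, number 14, where this cannot be seen.

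**Figure D4:**
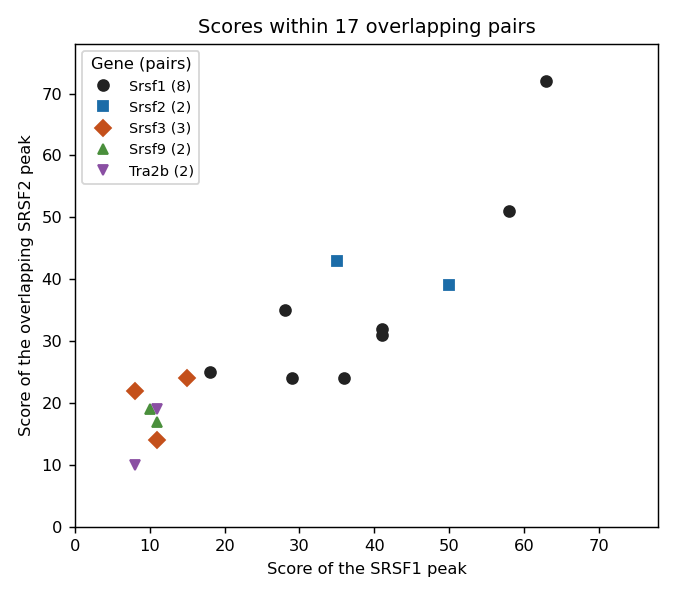
Authors' score of the SRSF1 peak (x axis) and of the SRSF2 peak that overlaps it (y axis) for the 17 pairs, by gene. The 8 pairs of Srsf1 and the 2 of Srsf2 lie at SRSF1 scores of 18 or more, and the pairs of the other genes at 15 or less.

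The highest-scoring peaks of both proteins overlapped in Srsf1 and Srsf3, 2 of the 5 genes, and not in Srsf2, Srsf9 or Tra2b, against 28.2% of 684 RefSeq-named genes with at least 3 peaks of each protein. In Srsf9 the distance was 358 nt from the nearer of the tied SRSF1 peaks. When the 2 highest peaks of each protein and their ties were allowed, the nearest lay within 27 nt in all 5 genes. On Tra2b the 27 nt came from an SRSF2 peak tied at a score of 19. The SRSF2 peak it tied with lay 70.5 nt from the nearest SRSF1 midpoint. The share of named genes under this looser rule is not given here. Within the 17 pairs the scores had a Spearman rho of 0.874, and within the 8 pairs of Srsf1 of 0.627. These are descriptions: pairs of 1 gene share its score level, 1 SRSF1 peak is in 2 pairs, and the larger value spans genes with high and low scores.

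How the score was spread over a gene differed among the 5. On Srsf2, 42.7% of the summed SRSF1 score lay in the highest peak, above the value of 95.5% of 684 named genes, but there are only 4 peaks, and for SRSF2 the share was 18.5%. With the score divided by peak width these shares were 35.8% and 27.9%, closer to each other. On Srsf9 it was the other way round, with 26.8% for SRSF1 and 41.3% for SRSF2, on 4 and 3 peaks. Srsf1 (17.7% and 19.3%), Srsf3 (17% and 15.3%) and Tra2b (25% and 22.7%) had values for the 2 proteins that lay closer together. The medians over named genes were 22.6% for SRSF1 and 20% for SRSF2. Of the bases under SRSF1 peaks on Srsf1, 79.0% also lay under an SRSF2 peak. This share was 63.0% on Srsf2, 45.8% on Srsf9, 37.0% on Srsf3 and 25.4% on Tra2b. Of the bases under SRSF2 peaks, 71.1% on Srsf1 also lay under an SRSF1 peak. That share was 44.3% on Srsf9, 42.9% on Srsf2, 20.1% on Srsf3 and 16.1% on Tra2b. The same shares over all listed peaks are not given here.

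**Figure D5:**
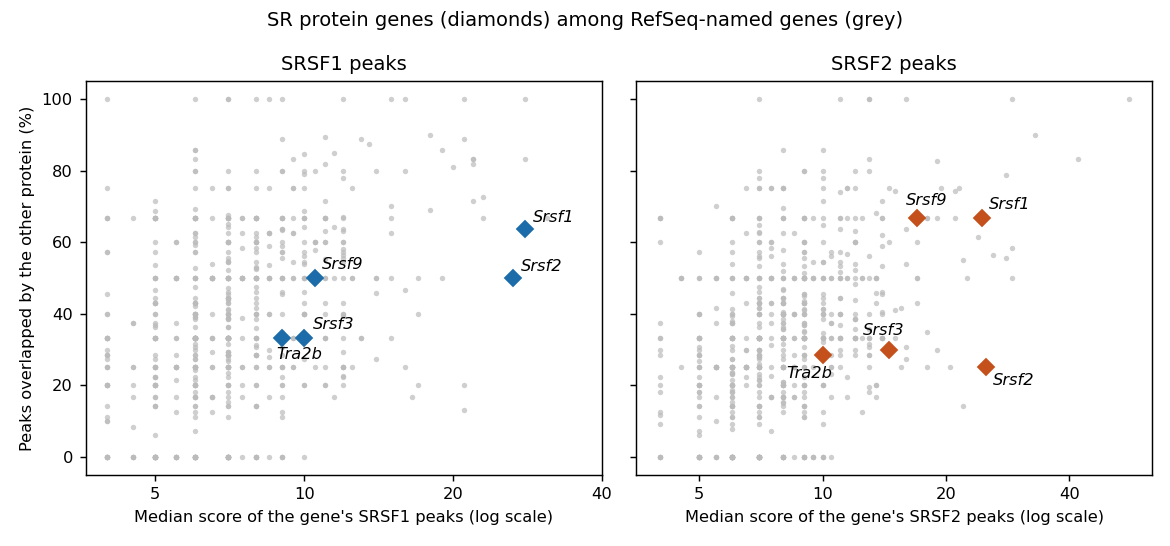
Share of a gene's peaks overlapped by the other protein (%) against the median score of those peaks (log scale), for SRSF1 peaks (left) and SRSF2 peaks (right). Grey points are the RefSeq-named genes with at least 3 peaks of each protein and diamonds are the 5 SR protein genes. Srsf1 and Srsf2 lie far to the right in both panels, and 25% of the SRSF2 peaks on Srsf2 and 66.7% of those on Srsf1 are overlapped, which becomes 62.5% and 66.7% when midpoints within 50 nt are counted. The grey points are not given under that looser rule.

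Few other genes around the family could be read, because genes with a RefSeq name hold 15.9% of all peaks. Of the 13 genes of the SR family list, 4 had a named unit with a peak, the members other than Srsf2. Of 11 genes for enzymes acting on SR proteins, Clk3, a kinase of SR proteins, had 3 SRSF1 and 5 SRSF2 peaks, and the phosphatase subunit gene Ppp1ca had 3 of each, with 1 overlapped SRSF1 peak in each gene. Of 17 genes of SR-related proteins, Rnps1, a splicing activator, had 1 peak of each protein, which did not overlap. Of 14 genes of nonsense-mediated decay and the exon junction complex, Smg6, an endonuclease of the decay pathway, had 23 SRSF1 and 42 SRSF2 peaks. On Smg6, 12 SRSF1 peaks (52.2%) and 13 SRSF2 peaks (31.0%) were overlapped, against 38.7% and 35.2% of all listed peaks. Smg8 had 1 SRSF1 peak. The counts on Clk3, Ppp1ca and Rnps1 are too small to set against these shares. The genes most like Srsf1 were sought among 16 with peak numbers within 1 of its own in each of the 2 libraries. Hnrnpul2 had 63.6% of SRSF1 peaks overlapped, the same as Srsf1. Afap1 and Pcolce had 66.7% each, 3.03 percentage points away. The genes were chosen by this share, so its likeness is given by the choice. Median SRSF1 and SRSF2 scores were 12 and 11 on Hnrnpul2, 6 and 7.5 on Afap1 and 23 and 24 on Pcolce. On Srsf1 they were 28 and 24.5. The lowest scores on Pcolce, 19 and 21, were above the 17 and 19 of Srsf1.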

How the data were processed

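For SRSF1 and for SRSF2 the authors deposited 1 list of peaks with a score per peak. Scores in the deposited lists are whole numbers from 4 upward, and neither their meaning nor the aligner, the peak caller, its threshold or any pooling is given in the sources used here. The build is mm9, per the submitters' processing notes, and positions are 1-based. Read depth is unknown. For symbols alone, a RefSeq table of GRCm38.p6 was used, which matched 2155 of 2169 accessions. Peaks were compared with Python 3.11.15, pandas 2.3.3, numpy 2.4.6 and scipy 1.17.1. Peaks overlapped where they had 1 nt or more in common on 1 strand. The function was tested on simulated data and gave the same counts as bedtools 2.31.1. Distances are between midpoints, positive in transcript direction. Scores were ranked within a list, and the Spearman values describe pairs across lists. Shares carry exact (Clopper-Pearson) 95% intervals. The genes and gene lists were chosen with earlier results of these data known. Every peak of the 5 genes was counted. Of each gene list, all named genes with a peak were given. The genes most like Srsf1 were those with peak numbers within 1 of its own and the nearest share of overlapped SRSF1 peaks. Alternatives were a stricter overlap, midpoint distance, merged peaks, the upper 50% by score, all peaks in a gene's span, each gene left out, the 2 highest peaks, peak starts, and score per nt.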

Additional observations from a re-analysis of the deposited data

How the results depend on the processing

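The shares over the 5 genes stayed inside their own intervals under each alternative run, and those intervals are wide. All 74 peaks scored at or above the list median of 8, no peaks touched and no other peak lay in a gene's span, so these alternatives changed nothing. Leaving out each gene gave an SRSF1 share of 44.8% to 48.4%, an overlap of 39.1% to 52.0% for SRSF1 and 32.1% to 46.9% for SRSF2, lowest without Srsf1. Midpoints within 50 nt gave 61.8% and 57.5%. The share of all listed peaks under this rule is not given here, so these values have no background beside them. By gene, this rule moved the SRSF2 peaks of Srsf2 from 25% to 62.5% and its SRSF1 peaks from 50% to 100%, and those of Srsf3 from 33.3% to 55.6% (SRSF1) and from 30% to 50% (SRSF2). Genes with highest peaks within 50 nt rose from 2 to 5 with the 2 highest peaks and their ties, a looser rule by construction. On Tra2b this rested on a tied SRSF2 peak. With score per nt the median share in the highest peak moved from 25% to 27.9% (SRSF1) and from 19.3% to 24.3% (SRSF2). No paired analysis was possible because each protein has 1 library. Peak lists without read counts limit what the absence of a partner can show.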

Other observations

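No peak of either protein lay on the opposite strand within the span of any of the 5 genes. Same-strand peaks that the authors called nongenic followed 2 of the genes within 5000 nt. Downstream of Srsf3 there were 3 SRSF2 peaks, each with a score of 5 and from 1722 to 3571 nt past the last listed peak, and no SRSF1 peak. Downstream of Srsf9 there were 2 SRSF1 peaks with a score of 7, at 115784765 to 115784774 and 115785694 to 115785699, and 1 SRSF2 peak with a score of 9, at 115784667 to 115784688. Within 5000 nt of the peaks of Srsf2 the opposite strand held 1 SRSF1 and 2 SRSF2 peaks. One SRSF2 peak with a score of 12, at 116715322 to 116715338, lay 1105 nt past the 5′-most peak. On the 3′ side were an SRSF2 peak at 116707199 to 116707211 (score 7) and an SRSF1 peak at 116707236 to 116707246 (score 5), 4398 and 4363 nt away.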
